A study of Mus musculus with 416 samples.

Results

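Long genes that encode neuronal adhesion proteins, synaptic proteins and their partners were followed through the DNA replication programme of single cells of mouse embryos. The 34 genes were a named list, of 19428 autosomal protein-coding genes with a usable measurement. For each gene all 50-kb bins from its start to its end in the mouse genome build GRCm38 were taken, where at least 10 cells had a measured state in all 6 groups. All 891 bins of the 34 genes met this minimum, 16 to 47 bins per gene. The genes were 739.85 to 2270.5 kb long with a median of 1142 kb, whereas the median gene was 18.3 kb long, and 28 of the 34 exceeded 1000 kb. They lay on 14 chromosomes. Gpc5 and Gpc6 were under 2 Mb apart, as were Robo1 and Robo2, which leaves 32 separate locations.

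All embryos were (C57BL/6J x CBA) x DBA/2J. At 17 to 18 h after hCG each zygote had received either a non-targeting siRNA (siCont) or one that targets Rif1 (siRif1), both at 20 µM, and embryos were collected as 4-cell embryos, 8-cell embryos or morulae. The study asked how replication timing differs once RIF1, a chromatin protein known to control when regions replicate, is depleted. Each of 299 cells with a column in the tables, of 416 labelled cells, had a state of 0 or 1 in each measured bin of chromosomes 1 to 19. There were 49 siCont and 51 siRif1 cells of the 4-cell stage, 60 and 50 of the 8-cell stage, and 44 and 45 of the morula stage. No measure of the Rif1 knockdown was part of these data. Which embryo, litter or batch a cell came from is not in the labels, so each group counted as 1 sample, cells of a group may share an embryo, and no test between groups was possible.

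DNA is copied in S phase in an order that differs between regions. Gene-rich, active chromatin is copied early, and gene-poor chromatin at the nuclear periphery late. The largest genes of mammals are enriched for neuronal adhesion and synaptic functions. They commonly lie in gene-poor, late-replicating domains, and several are known fragile sites, where copying that is incomplete when mitosis starts can break the chromosome. The assay reads the DNA of these genes, not their expression. Not all 34 are adhesion genes: Sox5 encodes a transcription factor, Galntl6 a member of the family that starts mucin-type O-glycosylation, Sgcz a sarcoglycan of the muscle membrane complex, and Magi2 a synaptic scaffold.

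A state of 1 was read as replicated, because in each of the 6 groups it was more frequent in bins with the midpoint of a gene than elsewhere. The replicated share of a gene is the percent of measured cells in that state, averaged over its bins. Cells of different groups had progressed to different extents through S phase. The share was therefore centred by subtracting the mean over all used bins of the group, which was 46.5 and 50.5% at the 4-cell stage (siCont and siRif1), 49.2 and 43.02% at the 8-cell stage and 49.4 and 49.98% at the morula stage. The shift is the centred share in siRif1 minus that in siCont, in percentage points. A positive shift is called earlier and a negative one later. A shift of 10 points or more in size was counted as large. No siRif1 cell of the 8-cell stage had replicated more than 66.3% of its bins, while siCont cells of that stage reached 97.3%. The shortest run of 1 state was 5 bins (250 kb) in all 6 groups, so structure finer than that could not be read within a gene.

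The promoters listed for these genes differed in how often they held the dinucleotide CG, and some lie inside the gene rather than at its annotated start. RefSeq promoter sequences on GRCm38.p6, from 250 bases before to 50 after a start, were matched by symbol for 28 of the 34 genes, 46 promoters in all. Ptprd, Gpc6, Cdh13, Sgcz, Dcc and Grid1 were not matched. Of the 46, 24 (52.2%) held the dinucleotide CG at least 10 times, against 60.6% of the 18985 promoters of all genes, and the median number of CG was 10 against 15. CG is its own reverse complement, so 1 strand was searched. Among genes with 1 listed promoter, those with the most CG (Nkain2 with 43, Ctnna2 with 38) and the fewest (Tenm2 with 2, Sox5 with 3) are printed 5′ to 3′ with each CG in capitals. All 4 are on the minus strand.

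Nkain2, chr10:32889866-32890165: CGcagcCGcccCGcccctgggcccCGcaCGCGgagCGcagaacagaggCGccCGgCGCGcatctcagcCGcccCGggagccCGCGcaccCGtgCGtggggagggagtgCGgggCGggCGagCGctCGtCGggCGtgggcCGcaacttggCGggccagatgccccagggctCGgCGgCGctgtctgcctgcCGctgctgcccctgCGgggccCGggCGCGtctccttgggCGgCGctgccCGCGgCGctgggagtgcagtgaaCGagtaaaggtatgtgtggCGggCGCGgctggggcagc
Ctnna2, chr6:77979618-77979917: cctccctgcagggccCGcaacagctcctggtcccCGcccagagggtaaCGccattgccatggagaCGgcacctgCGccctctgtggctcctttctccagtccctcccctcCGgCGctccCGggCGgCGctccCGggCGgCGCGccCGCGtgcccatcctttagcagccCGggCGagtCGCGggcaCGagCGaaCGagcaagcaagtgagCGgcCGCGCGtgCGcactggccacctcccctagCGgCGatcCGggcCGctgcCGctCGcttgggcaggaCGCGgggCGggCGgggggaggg
Tenm2, chr11:36944192-36944491: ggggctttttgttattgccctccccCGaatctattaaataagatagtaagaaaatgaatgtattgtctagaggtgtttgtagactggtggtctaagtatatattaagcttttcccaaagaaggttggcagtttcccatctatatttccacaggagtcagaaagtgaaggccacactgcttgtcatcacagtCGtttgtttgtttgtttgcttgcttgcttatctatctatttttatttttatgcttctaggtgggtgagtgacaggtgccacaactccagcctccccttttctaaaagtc
Sox5, chr6:143947057-143947356: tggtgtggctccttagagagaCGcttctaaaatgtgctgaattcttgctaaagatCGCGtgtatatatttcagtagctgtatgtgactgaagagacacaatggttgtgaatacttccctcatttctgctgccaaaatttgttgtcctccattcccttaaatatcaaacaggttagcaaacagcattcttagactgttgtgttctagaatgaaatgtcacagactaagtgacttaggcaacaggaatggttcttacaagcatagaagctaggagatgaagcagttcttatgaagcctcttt

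The start of Ctnna2 lay 0.148 kb and that of Nkain2 7.26 kb from the 5′ end of the annotated gene, whereas those of Tenm2 and Sox5 lay inside the gene, 293 and 835 kb from that end. All 4 promoters were in bins below the mean of 49.4% in control morulae. The Nkain2 promoter bin was replicated in 6 of 44 siCont and in 12 of 45 siRif1 morula cells, and the Ctnna2 promoter bin in 9 of 43 and 12 of 45. The Tenm2 promoter bin was replicated in 10 of 44 and 17 of 45 cells, and its shift of 14.5 points stood apart from the 1.39 points of the whole Tenm2 gene. For Sox5 the promoter bin was replicated in 19 of 43 siCont and in 26 of 45 siRif1 cells. The promoter bin shifts at the 8-cell stage were 12.2 points for Nkain2, -3.15 for Ctnna2, 12.4 for Tenm2 and 21.2 for Sox5. All of these promoter values are shifts of single bins, for which 10 points is about the SD from counting error.

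In control embryos the 34 genes lay later in the programme at each successive stage. Their median replicated share was 42.9% at the 4-cell stage, 33.4% at the 8-cell stage and 21.4% at the morula stage. Over all genes the median went the other way, from 54.1% to 64.2% and 71.6%. Centred on the group mean, the medians of the 34 genes were -3.59, -15.8 and -28.0 points. Between the 4-cell and morula stages the centred share was lower in 30 of 34 genes, with -22.4 points as the median difference, where 19.6% of all genes were lower. Dpp10, an auxiliary subunit of A-type potassium channels, had the lowest difference of -35.6 points, and Cdh13, a cadherin anchored to the membrane without a cytoplasmic domain, the highest of 17.0 points.

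Counts against the group mean give the same order of stages. At the 4-cell stage 27 of the 34 genes lay below the mean of their siCont group, where 32.2% of all genes did. Of the 34, 31 did so at the 8-cell stage (22.8% of all genes) and 33 at the morula stage (18.8%). The latest 20% of genes held 11 of the 34 at the 4-cell stage, 30 at the 8-cell stage and 33 at the morula stage, against a share of all genes of 20.6, 20.2 and 20%. The one gene above the mean in control morulae was Cdh13, replicated in 62.1% of cells on average over its bins.

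The genes also spread apart with stage in control cells. The SD over the 34 genes was 5.61 points at the 4-cell stage, 9.80 at the 8-cell stage and 14.3 at the morula stage. The SD over all genes went the same way, with 15.5, 17.6 and 20.5 points. Sgcz was the lowest at the 4-cell stage with 31.9% and at the morula stage with 7.10%, and Erbb4, a receptor tyrosine kinase for neuregulins, was lowest at the 8-cell stage with 15.9%. The highest were Tenm3 (50.6%), Grid1 (54.5%) and Cdh13 (62.1%) at the 3 stages.

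In siRif1 embryos the genes were late as well, but by their centred medians less late than in siCont embryos of the same stage. Their median replicated share was 48.5% at the 4-cell stage, 33.6% at the 8-cell stage and 36.4% at the morula stage. Centred medians were -1.91, -9.41 and -13.6 points. Below the group mean lay 19 genes at the 4-cell, 29 at the 8-cell and 27 at the morula stage, against 37, 39.8 and 24.5% of all genes. The latest 20% of genes held 8, 17 and 25 of the 34, against 20.6, 20 and 19.8% of all genes. From the 4-cell to the morula stage the median difference was -12.6 points, and 29 of 34 genes were lower. Of all genes 32.8% were lower, with a median difference of 5.06 points.

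**Figure D1:**
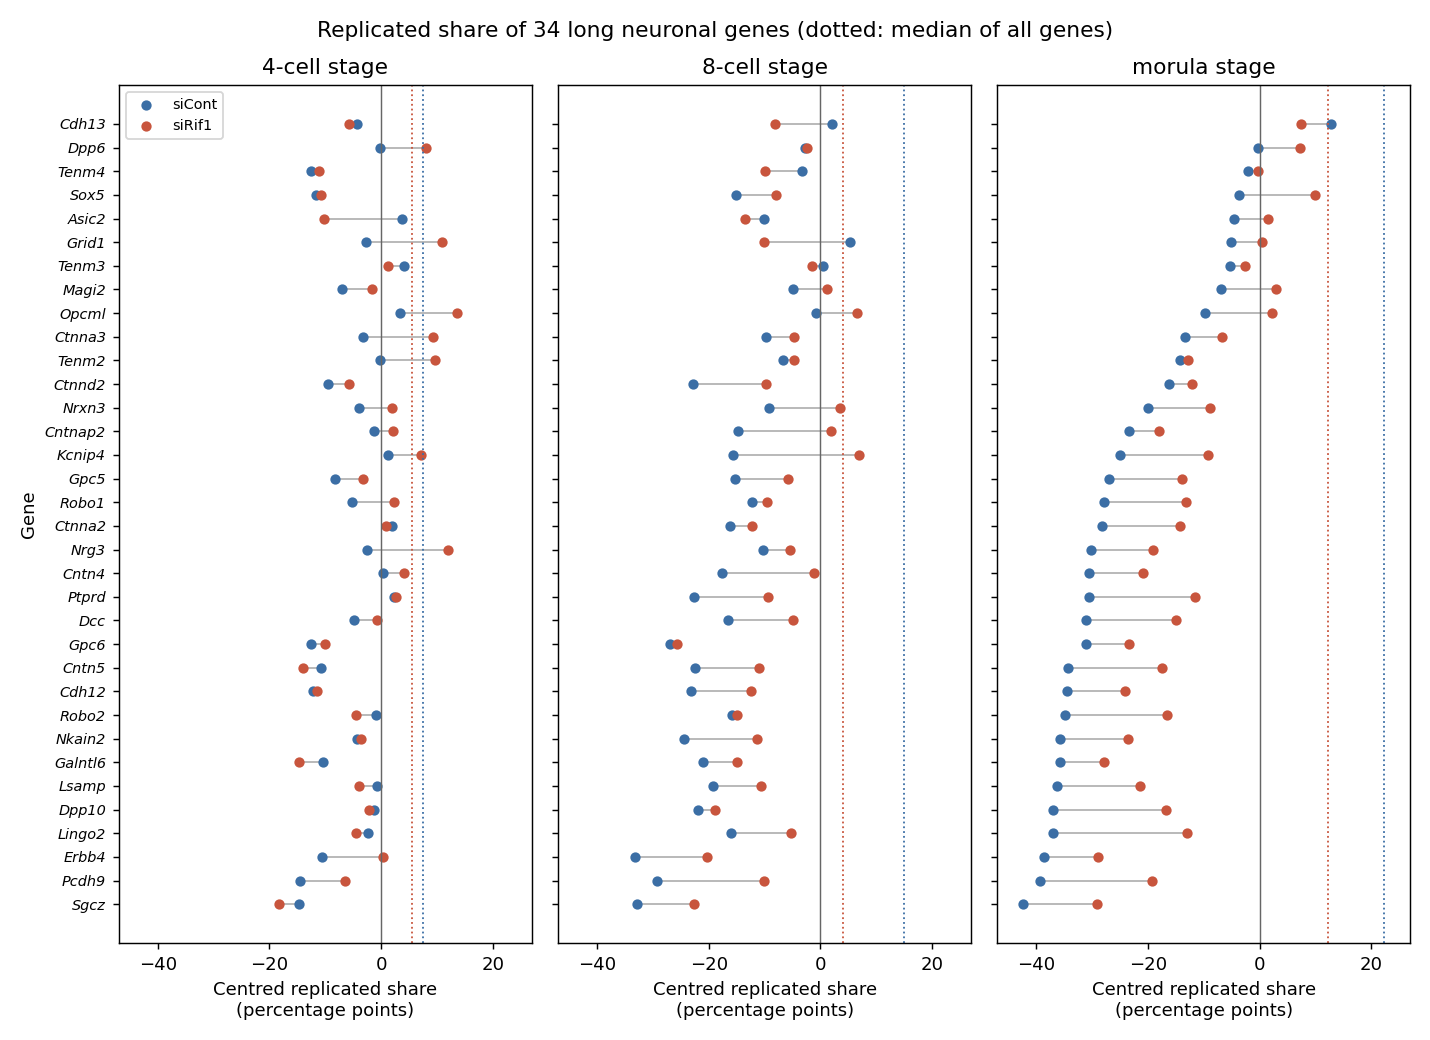
Centred replicated share in percentage points (x axis) of each of the 34 genes (y axis), in siCont and siRif1 cells at the 4-cell, 8-cell and morula stages; each point is the mean over the bins of 1 gene in 1 group, and the dotted lines are the medians of all genes. In control morulae 33 of 34 points lie below 0, and in 33 of 34 genes the siRif1 point of that stage lies to the right of the siCont point.

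Relative to the group mean, the siRif1 cells were earlier than controls in these genes, while the median gene was later. At the 8-cell stage the median share itself was nearly the same, with 33.4% in siCont and 33.6% in siRif1 cells. The group mean at that stage was 49.2 and 43.02%. A positive 8-cell shift can therefore go with a share that was unchanged or lower, as in Robo2 with 33.3 and 28.1%. The median shift of the 34 genes was 2.92 points at the 4-cell stage, 7.24 at the 8-cell stage and 11.2 at the morula stage, where the medians of all genes were -2.23, -7.49 and -7.86. Shifts were positive in 23 of 34 genes and negative in 11 at the 4-cell stage (40.6 and 59.4% of all genes), in 29 and 5 at the 8-cell stage (28.2 and 71.8%) and in 33 and 1 at the morula stage (24.6 and 75.4%). In 29 genes they were positive at both later stages, as in 13.2% of all genes, and in 21 at all 3 stages, as in 6.97%. The exceptions at the 8-cell stage were Tenm3, Tenm4, Cdh13, Grid1 and Asic2, and the exception at the morula stage was Cdh13.

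Large shifts were mostly towards earlier. At the 4-cell stage 5 genes were earlier by 10 points or more and 1 was later, against 9.51 and 20.4% of all genes. The counts were 14 and 2 at the 8-cell stage, against 7.60 and 42.6%, and 19 and 0 at the morula stage, against 7.21 and 40.9%. At both later stages 10 of the 34 genes, and 2.02% of all genes, were earlier by 10 points or more. Values crowded around the limit: Sgcz was just inside it with 10.1 points and Gpc5 just outside with 9.48 at the 8-cell stage, Cdh12 with 10.4 and Magi2 with 9.72 at the morula stage, and Opcml with 10.2 and Tenm2 with 9.80 at the 4-cell stage.

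These sizes moved with the contrast of the whole profile. Over all used bins the share had an SD of 13.7 points (siCont) and 14.02 points (siRif1) at the 4-cell stage, of 19.8 and 14.7 at the 8-cell stage, and of 25.8 and 17.3 at the morula stage, so bins lay nearer to the group mean in siRif1 cells of the later stages. With every group scaled to a common SD, the median shift of the 34 genes was 4.02 points at the 8-cell stage and 5.00 at the morula stage. Large earlier shifts then numbered 5 at each of these stages, with 2 and 0 later, where 9.47 and 10.8% of all genes were earlier and 35.9 and 20.6% later by that much. With each bin replaced by its percentile rank within the group, 12 genes were earlier and 4 later at the 8-cell stage and 7 earlier and 0 later at the morula stage, against 16.5 and 16.8% of all genes earlier and 44.9 and 28.3% later. On both scales the count of earlier genes at the morula stage was near the share of all genes, and the count of later ones was below it. Shifts were positive in 23 genes at the 8-cell stage and in 24 at the morula stage on either scale, where 33.5 to 34.2% and 41.9 to 42.8% of all genes were positive. The shift had the same sign on all 3 scales in 33 genes at the 4-cell, 27 at the 8-cell and 22 at the morula stage. The sign turned on at least 1 of the other scales for Ptprd at the 4-cell stage, and for Ctnna2, Dpp6, Dpp10, Galntl6, Gpc6, Robo1 and Robo2 at the 8-cell stage. Those that turned at the morula stage were Cdh12, Cdh13, Cntn4, Cntnap2, Ctnnd2, Erbb4, Galntl6, Gpc6, Nkain2, Nrg3, Sgcz and Tenm2. Whole genes were also ranked among all genes instead of bins. The percentile was then higher in siRif1 cells for 26 genes at the 4-cell, 31 at the 8-cell and 32 at the morula stage. It was lower for 8, 3 and 2, and the median changes were 7.45, 12.6 and 4.50 points.

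Nrg3 and Erbb4 form a ligand and receptor pair: Nrg3 is a neuregulin of the brain and Erbb4 its receptor. Nrg3 (gene ID 18183, chr14:38365102-39473235) was replicated in 44.01, 38.99 and 19.2% of siCont cells and in 62.5, 37.7 and 30.9% of siRif1 cells at the 4-cell, 8-cell and morula stages. Its 4-cell shift of 14.6 points was the highest of the 34 genes at that stage. Most of the gene, meaning over 50% of its measured bins, was replicated in 24 of 49 siCont cells (48.98%, 95% interval 34.4 to 63.7%) and in 35 of 51 siRif1 cells (68.6%, 54.1 to 80.9%) of the 4-cell stage, and the intervals, which cover counting error only, overlapped. Erbb4 (gene ID 13869, chr1:68031884-69108576) was replicated in 36.02, 15.9 and 10.8% of siCont and in 50.7, 22.8 and 20.97% of siRif1 cells. Its shifts were 10.8, 13.02 and 9.61 points. At the morula stage the shifts of both genes were negative as percentile ranks of bins, with -2.37 points as their median, although their shares were higher in siRif1. Ranked as whole genes among all genes, Nrg3 went from percentile 5.39 in siCont to 7.07 in siRif1 morulae and Erbb4 from 2.06 to 2.75.

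The 8 genes of synaptic and neurite adhesion were earlier at the 8-cell stage in every case. Their median shift was 12.1 points at the 8-cell and 13.4 at the morula stage, with 6 of 8 large at each and 4 of 8 at both. Of all genes 7.60 and 7.21% were earlier by that much at these stages, and 2.02% at both. Of 72 other genes at least as long as the shortest of the 34, it was 29 and 37, and 16 at both. At the 8-cell stage all 8 were also positive when scaled to a common SD (median 8.59) and as percentile ranks (median 15.5). At the morula stage 6 of 8 were positive on those scales. Median 4-cell shift was 1.85 points, with 5 of 8 positive.

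Cntnap2 (gene ID 66797, chr6:45060061-47301393), which helps to cluster potassium channels along axons, was replicated in 45.3, 34.4 and 25.9% of siCont and in 52.6, 44.9 and 31.98% of siRif1 cells. Its shift of 16.7 points was the highest of the group at the 8-cell stage, and its 5.46 points at the morula stage turned to -2.78 when scaled to a common SD. Lingo2 (gene ID 242384, chr4:35696778-36951744), a leucine-rich repeat membrane protein, had siCont shares of 44.2, 33.3 and 12.4% and siRif1 shares of 45.9, 37.8 and 36.95%. Centred, it went from -15.9 points at the 8-cell to -37.02 at the morula stage in siCont cells and from -5.24 to -13.02 in siRif1 cells. Most of Lingo2 was replicated in 3 of 44 siCont morula cells (6.82%, 1.43 to 18.7%) and in 17 of 45 siRif1 cells (37.8%, 23.8 to 53.5%). The intervals cover counting error only and do not compare the groups. The shift of 23.99 points was the highest of the 34 genes at that stage.

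Ptprd (gene ID 19266, chr4:75941237-78211742), a receptor tyrosine phosphatase that organises presynaptic terminals, was the longest of the genes. Its shares were 48.8, 26.5 and 18.8% in siCont and 53.1, 33.7 and 38.3% in siRif1 cells, with shifts of 0.345, 13.4 and 18.9 points. Centred on the group mean it was lower at the morula than at the 8-cell stage in both groups, with -22.7 and -30.6 points in siCont and -9.32 and -11.6 in siRif1 cells. Lsamp (gene ID 268890, chr16:39984254-42181679), a member of the IgLON family of neurite adhesion proteins, had shares of 45.8, 30 and 13.1% in siCont and 46.5, 32.3 and 28.5% in siRif1 cells. Its shifts were -3.18, 8.49 and 14.8 points. Nrxn3, a presynaptic neurexin, had shifts of 6.00, 12.7 and 11.2 points. Among the contactins, membrane-anchored immunoglobulin proteins of axons, Cntn4 had 3.70, 16.6 and 9.58 points and Cntn5 -3.21, 11.5 and 16.8 points. The morula shift of Cntn4 was -3.81 as a percentile rank and -0.517 at a common SD. Opcml, another IgLON gene, had 10.2, 7.29 and 11.9 points.

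The 3 teneurins, large transmembrane proteins that join neurons across the synapse, had small shifts at the later stages as means over the whole gene. Their median was -1.97 points at the 8-cell and 1.82 at the morula stage, and no whole-gene shift was large at any stage. The small morula values of Tenm2 and Tenm3 were means of opposite shifts along the gene. With each gene cut into 3 equal parts, the 5′ and 3′ parts of Tenm2 had morula shifts of 18.5 and -20.5 points. Those of Tenm3 had 18.5 and -18.0, and those of Tenm4 4.88 and -2.01. At the 8-cell stage the same parts had 12.7 and -7.43 points in Tenm2, 0.44 and -4.37 in Tenm3, and -5.81 and -3.26 in Tenm4. Opposite morula shifts of the 5′ and 3′ parts were not limited to teneurins. Among others, Asic2 had 15.2 and -11.95 points and Cntnap2 12.5 and -6.81. Tenm4 (gene ID 23966, chr7:96171244-96911093), the shortest of the 34 genes, was replicated in 34.1, 45.97 and 47.3% of siCont and in 39.3, 33.1 and 49.7% of siRif1 cells. In both groups it was higher at the morula than at the 4-cell stage, unlike most of the genes. Its shifts were 1.37, -6.67 and 1.82 points. Tenm2 (gene ID 23964, chr11:36006656-37237053) was replicated in 46.3, 42.5 and 35.1% of siCont and in 60, 38.3 and 37.1% of siRif1 cells, with shifts of 9.80, 1.93 and 1.39 points. Tenm3 (gene ID 23965, chr8:48225665-49522824) had shares of 50.6, 49.6 and 44.02% in siCont and 51.7, 41.5 and 47.4% in siRif1 cells, with shifts of -2.85, -1.97 and 2.80 points.

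Among the cadherins and catenins the shifts lay from -10.2 to 19.3 points at the 8-cell stage. Cadherins bind cells to each other, and catenins tie them to actin. Pcdh9 (gene ID 211712, chr14:93013700-93892834), a protocadherin, was replicated in 32.1, 19.9 and 10.1% of siCont and in 43.9, 33 and 30.7% of siRif1 cells, with shifts of 7.90, 19.3 and 20.1 points. In control morulae most of it was replicated in 2 of 44 cells (4.55%, 0.555 to 15.5%) and in siRif1 morulae in 13 of 45 (28.9%, 16.4 to 44.3%). Cdh13 (gene ID 12554, chr8:118140017-119324929) ran the other way. Its shares were 42.2, 51.3 and 62.1% in siCont and 44.7, 34.96 and 57.4% in siRif1 cells, with shifts of -1.41, -10.2 and -5.26 points. As a percentile rank its morula shift was 1.39. The greater part of Cdh13 was replicated in 30 of 60 siCont (50%, 36.8 to 63.2%) and in 18 of 50 siRif1 cells (36%, 22.9 to 50.8%) of the 8-cell stage, with overlapping intervals.

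Ctnna3 (gene ID 216033, chr10:63430098-65003667), the alpha-T catenin also known from heart muscle, had shares of 43.4, 39.4 and 36.02% in siCont and 59.8, 38.2 and 43.3% in siRif1 cells and a 4-cell shift of 12.5 points. Its later shifts were 4.96 and 6.69 points. Ctnnd2 (gene ID 18163, chr15:30172534-31029344), the delta-catenin of dendrites, had siCont shares of 36.96, 26.4 and 33.2% and siRif1 shares of 44.7, 33.3 and 37.9%. Its shift of 13.1 points at the 8-cell stage was larger than the 3.79 and 4.11 points at the other stages, and the morula value turned to -3.03 as a percentile rank and to -1.496 at a common SD. Ctnna2, the neuronal alpha-catenin, had shifts of -1.04, 3.99 and 13.8 points, and Cdh12, a brain cadherin, 0.702, 10.7 and 10.4 points. The median of the 6 genes was 7.80 points at the 8-cell and 8.54 at the morula stage, and on the common SD scale the morula median was 0.862.

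The axon guidance receptors differed between the later stages. Dcc, the netrin receptor, and Robo1 and Robo2, receptors for Slit proteins, had a median shift of 2.72 points at the 8-cell and 16.2 at the morula stage. All 3 were large at the morula stage, where 7.21% of all genes were earlier by that much, and on the other scales all 3 remained positive there. At the 8-cell stage the median turned to -0.499 on the common SD scale and to -0.764 as a percentile rank. Dcc (gene ID 13176, chr18:71253613-72351228) was replicated in 41.8, 32.7 and 18.3% of siCont and in 49.6, 38.1 and 35.1% of siRif1 cells. Robo2 (gene ID 268902, chr16:73891976-75447443) was replicated in 45.6, 33.3 and 14.5% of siCont and in 45.9, 28.1 and 33.3% of siRif1 cells. Most of Robo2 was replicated in 5 of 42 siCont (11.9%, 3.98 to 25.6%) and in 14 of 45 siRif1 morula cells (31.1%, 18.2 to 46.6%), with overlapping intervals. Robo1 had shifts of 7.54, 2.72 and 14.7 points.

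Glypicans are heparan sulfate proteoglycans that bind growth factors and synaptic receptors. Gpc5 (gene ID 103978, chr14:115092201-116525192) was replicated in 38.3, 33.8 and 22.5% of siCont and in 47.1, 37.1 and 36% of siRif1 cells, with shifts of 4.91, 9.48 and 12.9 points. Its neighbour Gpc6 had shifts of 2.504, 1.35 and 7.80 points, and was below the siCont level at both later stages on the other scales, with -6.58 and -3.001 points at a common SD.

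The channels, receptors and their auxiliary subunits ranged from -15.3 to 22.6 points at the 8-cell stage. Their median shift was 1.69 points at the 8-cell stage, which turned to -1.75 at a common SD, and 9.82 at the morula stage. Kcnip4 (gene ID 80334, chr5:48389503-49525122), a calcium-binding partner of A-type potassium channels, was replicated in 47.7, 33.5 and 24.4% of siCont and in 57.6, 49.9 and 40.6% of siRif1 cells. Its 8-cell shift of 22.6 points was the highest of the 34 genes. Most of Kcnip4 was replicated in 21 of 60 siCont (35%, 23.1 to 48.4%) and in 24 of 50 siRif1 cells (48%, 33.7 to 62.6%) of that stage, and the intervals overlapped, in groups whose mean shares were 49.2 and 43.02%. Dpp10 (gene ID 269109, chr1:123332138-124845815) was replicated in 45.2, 27.2 and 12.4% of siCont and in 48.3, 24.2 and 33.2% of siRif1 cells. Its morula shift was 20.2 points, and its 8-cell shift of 3.17 turned to -2.93 at a common SD. In the morula most of it was replicated in 4 of 44 siCont (9.09%, 2.53 to 21.7%) and in 16 of 45 siRif1 cells (35.6%, 21.9 to 51.2%).

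Grid1 (gene ID 14803, chr14:34820003-35583387), the delta 1 subunit of the glutamate receptor family, turned its direction between stages. It was replicated in 43.9, 54.5 and 44.2% of siCont and in 61.4, 33 and 50.4% of siRif1 cells, with shifts of 13.6, -15.3 and 5.65 points. Most of it was replicated in 31 of 60 siCont (51.7%, 38.4 to 64.8%) and in 16 of 50 siRif1 cells (32%, 19.5 to 46.7%) of the 8-cell stage, with overlapping intervals. The 1 Mb on either side of Grid1 turned as well, with shifts of 12.9 points at the 4-cell and -12.9 at the 8-cell stage. Asic2 (gene ID 11418, chr11:80880163-81968396), a proton-gated sodium channel, was the lowest at the 4-cell stage, with 50.2% in siCont, 40.2% in siRif1 and a shift of -13.96 points. Its later shares were 39.1 and 44.8% in siCont and 29.5 and 51.4% in siRif1 cells, with shifts of -3.40 and 6.05 points. Dpp6, a second auxiliary subunit of A-type channels, had shifts of 8.30, 0.216 and 7.56 points, and Nkain2, a partner of the sodium pump, 0.623, 13.1 and 12.1 points.

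Of the genes outside these families, Sgcz (gene ID 244431, chr8:37517840-38661705) was late in every group, with shares of 31.9, 16.4 and 7.10% in siCont and 32.2, 20.3 and 20.8% in siRif1 cells. Its morula shift of 13.1 points turned to -0.911 at a common SD. Sox5 (gene ID 20678, chr6:143828425-144782287) was replicated in 34.8, 34.1 and 45.7% of siCont and in 39.7, 35.1 and 59.9% of siRif1 cells. It was the highest of the 34 genes in siRif1 morulae, and its shifts were 0.995, 7.20 and 13.6 points. Galntl6 (gene ID 270049, chr8:57772489-58912531) had shares of 36.1, 28.2 and 13.6% in siCont and 35.7, 28 and 22.04% in siRif1 cells, and its shifts were -4.27, 5.99 and 7.81 points. As percentile ranks the later ones were -0.134 and -3.82 points, and at a common SD 0.678 and -4.88. Magi2 had 5.35, 6.02 and 9.72 points.

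The lateness in control cells of the later stages was deeper inside the genes than beside them. At the morula stage the gene bodies had a median centred share of -28.0 points and the 1 Mb on either side -13.9, and 26 of 34 bodies lay below their own flanks, by a median of -9.51 points. This held for 23 of 34 bodies at the 8-cell stage, by -5.02 points, and for 18 of 34 at the 4-cell stage, by -0.0643. In siRif1 cells the bodies were -3.39 points from their flanks at the morula stage, -1.92 at the 8-cell and 0.645 at the 4-cell stage. The shift of the body was above that of its flanks in 22 of 34 genes at the 4-cell stage, 24 at the 8-cell and 27 at the morula stage, by a median of 1.73, 4.06 and 5.97 points. The flanks had positive median shifts of 0.871, 5.42 and 4.60 points themselves. Gpc5 and Gpc6, and also Robo1 and Robo2, lie within 1 Mb of each other, so their flanks take in part of the neighbouring gene. Values for the bodies and flanks of other genes are not given here.

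**Figure D2:**
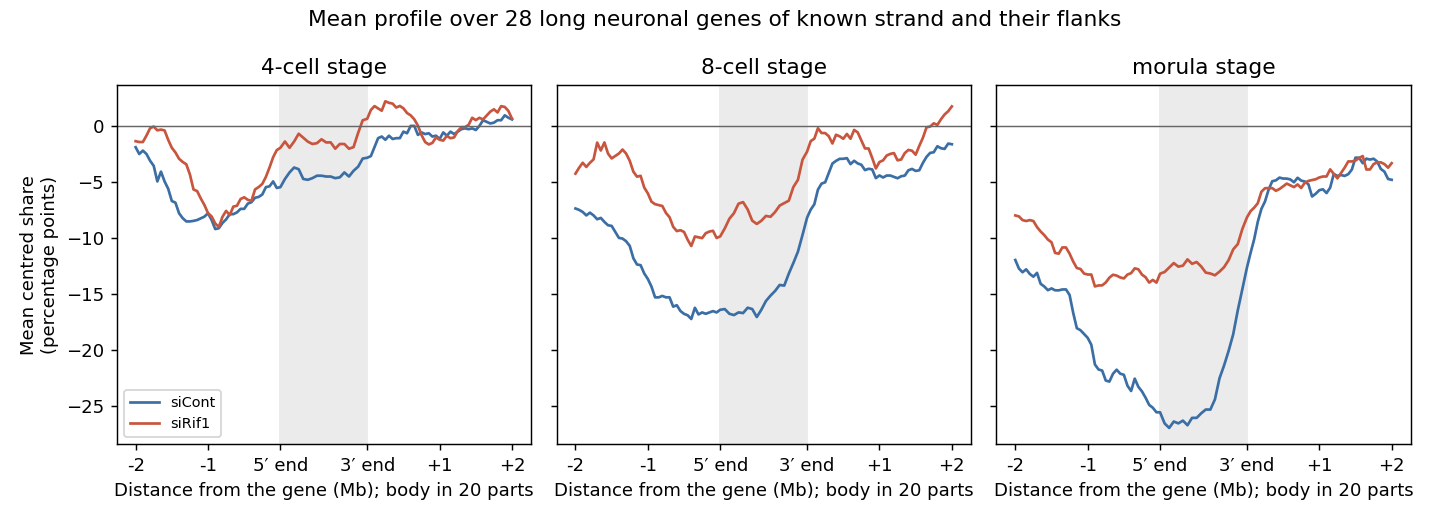
Mean centred replicated share in percentage points (y axis) over the 28 genes of known strand, along 2 Mb before the 5′ end, the gene body in 20 equal parts (shaded) and 2 Mb after the 3′ end, in siCont and siRif1 cells at each stage. In control morulae the body reaches -26.9 points and its last part -12.6, and in siRif1 morulae the lowest part of the body is at -13.3.

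Along the genes the 5′ side was the later one in control cells of the later stages. With the 28 genes of known strand cut into 3 equal parts, the 5′ part had a median of -31.6 points and the 3′ part -25.5 in control morulae, and the 5′ part was the higher in 9 of 28. Medians were -17.5 and -12.4 at the 8-cell stage, with the 5′ part higher in 10 of 28. In siRif1 morulae the medians were -14.6 and -15.8, with the 5′ part higher in 12 of 28. The morula shift of the 5′ part was 13.97 points and that of the 3′ part 11.1, and the 5′ part had the larger shift in 17 of 28 genes. Values for the parts of other genes are not given here, so this order cannot be called particular to the listed genes.

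Single cells showed the gap between the 34 genes and the rest of the genome in most cells of the later stages. In each cell the mean replicated percent of the genes was set against that of all used bins. At the morula stage the genes were below the genome in 43 of 44 siCont cells, by -22.7 points on average (SD 12.3 over cells), and in 37 of 45 siRif1 cells, by -12.0 (SD 10.3). They were below in 51 of 60 siCont cells (-14.8, SD 13.4) and 33 of 50 siRif1 cells (-8.22, SD 15.1) of the 8-cell stage. At the 4-cell stage they were below in 30 of 49 (-4.59, SD 11.3) and 27 of 51 cells (-1.70, SD 14.9). The SDs are over cells that may share embryos, and the groups were not tested.

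In the middle of S phase the gap was also narrower in siRif1 cells of the later stages at a like progress. Among morula cells with 50 to 70% of the genome replicated, the mean gap was -26.1 points in 18 siCont and -9.04 in 16 siRif1 cells, and with 30 to 50% it was -23.5 and -16.1 in 19 cells each. Among 8-cell stage cells with 50 to 70% replicated it was -20.3 in 18 siCont and -9.87 in 16 siRif1 cells, and with 30 to 50% it was -12.99 in 27 and -6.86 in 22 cells. In the same 2 ranges at the 4-cell stage it was -4.40 in 10 and 2.997 in 18 cells, and -7.99 in 15 and -5.54 in 16 cells. In all 6 of these comparisons the siRif1 mean was the higher, and in each the SD over cells was 9.51 to 18.9 points. Below 30% the order was not the same at each stage. The gap there was wider in siRif1 cells at the morula stage, with -13.8 points in 4 siCont and -16.2 in 5 siRif1 cells, and at the 4-cell stage, with -4.89 in 14 and -8.83 in 8 cells. At the 8-cell stage it was -14.04 in 7 siCont and -8.53 in 12 siRif1 cells. Above 70% it was -9.88 in 3 siCont and -2.004 in 5 siRif1 morula cells and 0.755 in 10 and 2.08 in 9 cells of the 4-cell stage. That range held 8 siCont cells and 0 siRif1 cells at the 8-cell stage.

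**Figure D3:**
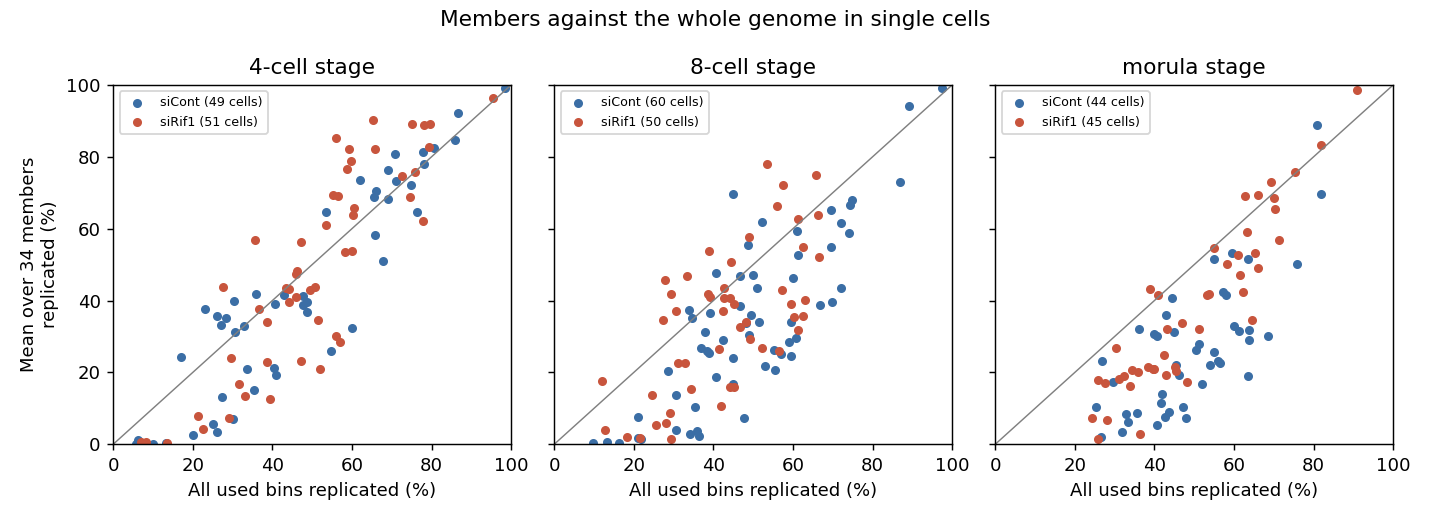
Mean replicated percent of the 34 genes (y axis) against the percent of all used bins replicated (x axis) in each cell, by stage, for siCont and siRif1; the diagonal marks equal values. In control morulae 43 of 44 points lie below the diagonal, and in siRif1 morulae 37 of 45.

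A gene of this size was often only partly copied in a cell. Both states were present within the gene in 34.9, 37.7 and 37.7% of gene and cell pairs of siCont cells at the 4-cell, 8-cell and morula stages, and in 36.3, 44.4 and 36.3% of those of siRif1 cells. Pairs with the whole gene replicated made up 25.7, 18.1 and 12.1% in siCont and 30.9, 14.5 and 21.7% in siRif1. Pairs with none of it replicated made up 39.4, 44.2 and 50.2% in siCont and 32.8, 41.1 and 42.1% in siRif1. For Cntnap2, 40 of 60 siCont and 36 of 50 siRif1 cells of the 8-cell stage held both states, and for Pcdh9, which is under 1000 kb long, 9 of 60 and 15 of 50. Values for other genes or stretches of this length are not given here, so these shares cannot be called particular to the listed genes.

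On the centred scale, those of the 34 genes with later control timing tended to have the larger shifts at the later stages. Timing was taken as the mean centred share in siCont cells of the other stages, so that it used none of the cells of the shift. Over the 34 genes Pearson's r between timing and shift was 0.162 at the 4-cell, -0.576 at the 8-cell and -0.377 at the morula stage, and Spearman's rho 0.289, -0.475 and -0.432. Without the 2 genes farthest in timing r was 0.148, -0.488 and -0.420. Over all genes r was -0.123, -0.514 and -0.394. These are descriptions across genes, which share all their cells and are not independent. As percentile ranks the value for the 34 genes was -0.146 at the 8-cell and 0.229 at the morula stage, and at a common SD -0.348 and 0.226, so the direction at the morula stage depended on the scale.

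Set against other genes of the latest control timing, the 34 genes had larger median shifts than short genes. When all genes were put into 5 equal classes of control timing at the other stages, the latest class held 33, 30 and 27 of the 34 at the 4-cell, 8-cell and morula stages. Their median shift there was 3.35, 8.99 and 12.9 points, while genes of under 50 kb in the same class had -0.654, 3.75 and 2.39. The median timing within the class at the 8-cell stage was -16.5 points for both. At the morula stage it was -10.2 for the 34 genes and -16.2 for the short genes, and at the 4-cell stage -21.1 and -17.8. Other genes of at least 739.85 kb in the class had 1.57, 9.58 and 12.9 points, close to the 34. These sets were not tested against each other.

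**Figure D4:**
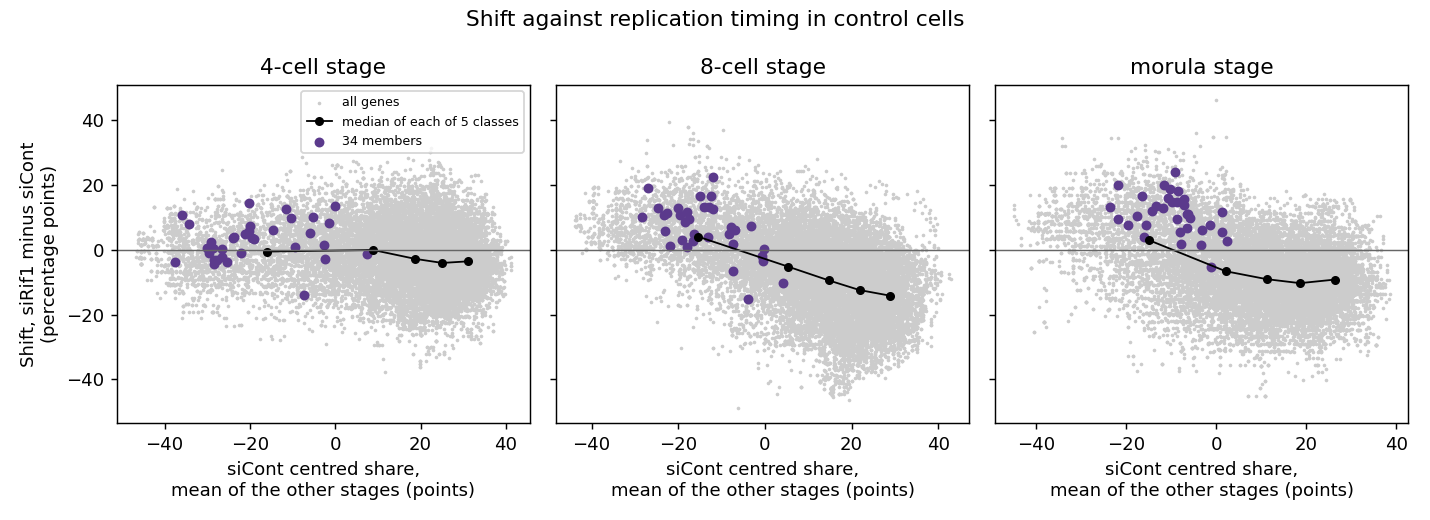
Shift, siRif1 minus siCont, in percentage points (y axis) against the mean centred share of siCont cells at the other stages (x axis), for all genes, the median of each of 5 timing classes, and the 34 genes. At the 8-cell and morula stages the class medians go from 4.06 and 2.94 points in the latest class to -14.2 and -9.17 in the earliest, and in the latest class 28 of 30 and 27 of 27 of the listed genes lie above 0.

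Within the 34 genes the shift had a weak link with length. Over the 34 genes r between length and shift was -0.187, 0.278 and 0.220 at the 4-cell, 8-cell and morula stages, and rho -0.297, 0.177 and 0.235. Without Ptprd and Cntnap2, the 2 longest, r was -0.212, 0.145 and 0.254. The 17 shorter genes had median shifts of 3.94, 5.99 and 9.61 points and the 17 longer 0.345, 9.48 and 12.1. Across genes outside the list the median 8-cell shift was -8.82 points under 50 kb, -5.15 at 50 to 200 kb, -0.969 at 200 to 500 kb, 3.11 from 500 kb to the length of Tenm4, and 7.63 beyond it. At the morula stage the same classes had -8.35, -7.58, -3.56, 2.93 and 10.8 points, and at the 4-cell stage -2.79, -0.781, 0.816, 3.55 and 1.80. Over all genes r between the logarithm of length and the shift was 0.0856, 0.0636 and -0.00198.

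The median shifts of the list were close to those of other genes of the same length, while its control timing was later at the 8-cell and morula stages. The 72 other genes at least as long as Tenm4 had median shifts of 1.80, 7.63 and 10.8 points, against 2.92, 7.24 and 11.2 for the 34. Large earlier shifts were seen in 7, 29 and 37 of the 72 and in 5, 14 and 19 of the 34, and large later shifts in 4, 7 and 2 of the 72. Positive shifts numbered 42, 57 and 58 of 72 and 23, 29 and 33 of 34. In siCont cells of the 4-cell stage the median centred share was -4.77 points for the 72 genes and -3.59 for the 34. At the 8-cell stage it was -10.9 and -15.8 points. In control morulae the median centred share was -14.4 points for the 72 genes and -28.0 for the 34, and the latest 20% of genes held 57 of the 72 and 33 of the 34. In siRif1 morulae the medians were -5.36 and -13.6 points. Some of these genes are neuronal as well, and no test was made.

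**Figure D5:**
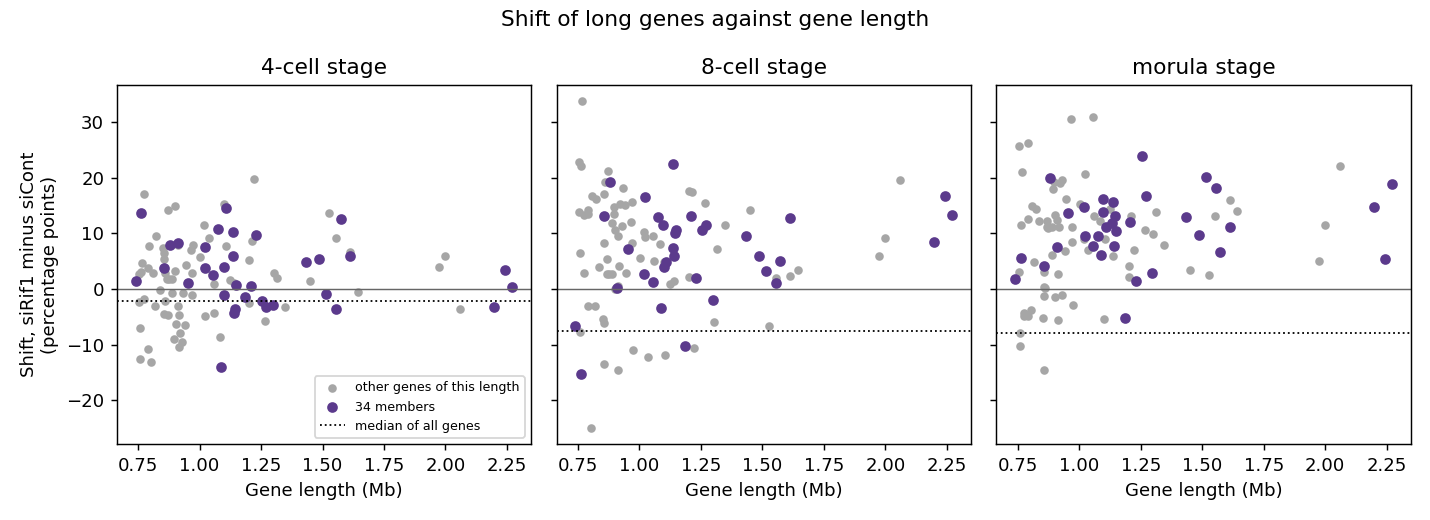
Shift in percentage points (y axis) against gene length in Mb (x axis) for the 34 genes and the 72 other genes at least as long as the shortest of them, at each stage, with the median of all genes dotted. The 2 sets of points overlap throughout, with medians of 7.24 and 7.63 points at the 8-cell stage and 11.2 and 10.8 at the morula stage.

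Relatives of the same families had lower median shifts than the 34 genes where they were short. A list of 71 paralogs, all measured, had median shifts of -3.14, -0.0648 and -2.46 points. The 8 paralogs as long as the shortest of the 34 had -0.0672, 9.31 and 11.7, and the 63 shorter ones -3.55, -2.05 and -5.38. Control timing differed between the sets too: in control morulae the median centred share was 19.9 points for the 63 and -23.2 for the 8. Of the 63, 10 (15.9%) were earlier by 10 points or more at the 8-cell and 15 (23.8%) at the morula stage, and 17 and 21 later. Shorter relatives with large earlier shifts, picked after their values were seen, were Cdh9 (129 kb) with 13.002, 19.1 and 22.002 points, Cdh10 (197 kb) with 2.24, 19.05 and 14.2 points and Pcdh10 (56.2 kb) with 0.206, 21.7 and 11.4 points.

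The families with the greatest ratio in length between member and shortest relative did not all show the same order. Asic3 (4.39 kb) had shifts of -26.2, -7.49 and -20.1 points and Asic1 (30.9 kb) -6.88, -9.32 and -3.47, and Asic2 itself was later at the 4-cell and 8-cell stages, with -13.96, -3.40 and 6.05. Lingo4 (5.28 kb) had 0.0064, 3.18 and -23.4 points and Lingo1 (178 kb) -17.4, -17.0 and -3.35, where Lingo2 had -2.24, 10.7 and 23.99. Gpc2 (6.37 kb) had 0.847, 4.51 and -13.1 points and Gpc1 (28.6 kb) -8.54, -13.8 and -7.73, where Gpc5 had 4.91, 9.48 and 12.9.

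Cntnap1 (16.1 kb), which acts at the paranodes of myelinated axons, was replicated in 88.6% of siCont and in 73.3% of siRif1 morula cells, with shifts of -11.4, -21.7 and -15.9 points. Cntnap5a (903 kb), of the same family, had 16.4 and 30.3% at that stage and shifts of -6.34, -0.0648 and 13.3 points. Iglon5 (17.3 kb) had -7.88, -5.92 and -40.4 points, and Ntm (969 kb), a neighbour of Opcml on chromosome 9, -1.09, 8.36 and 11.2. In the sarcoglycans Sgca (13.6 kb) had 9.15, -22.5 and -15.6 points and Sgcd (1018 kb) 11.4, 10.3 and 8.93, where Sgcz had -3.61, 10.1 and 13.1. A short gene covers 1 or a few bins, so its value carries more counting error than that of a gene of 16 or more bins.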

How the data were processed

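Single blastomeres had been amplified over the whole genome with barcoded primers and sequenced, per the labels' protocols. Picard, SAMtools, bedtools, Bowtie2 2.5.1, R 4.2.3 and the build GRCm38 are named, without roles, per the submitters' processing notes. The sources used here do not state how reads became states, and read depth per cell is unknown (not given in the sources used here). The deposited tables give each cell 0, 1 or NA per 50-kb bin, with no normalization named. Used were 46015 of 49264 bins, those with 10 or more measured cells in all 6 groups, and no 2 cells of a group were identical.

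Genes and promoters came from RefSeq tables on GRCm38.p6. Shares were averaged over all bins that a gene touches. With 1 sample per group there were no tests; intervals are exact 95% Clopper-Pearson intervals (scipy 1.17.1, Python 3.11.15, pandas 2.3.3, numpy 2.4.6) and cover counting error only. Overlap of intervals, or its absence, does not compare the groups, since cells may share embryos. The members and lists were chosen with earlier results of these data known. Named in full were the 3 highest and 3 lowest shifts per stage, the 3 longest and 3 shortest genes, the member with the largest shift of each role group at the 8-cell and morula stages, and the shortest and longest paralog of the 6 families with the largest length ratio; other members are given by their shifts. Alternatives were cells 20 to 80% replicated, cells in pairs within 5 points, percentile ranks, a common SD, 20 cells per bin, bins wholly inside a gene, the midpoint bin, and 1 gene per 2 Mb cluster. The code was tested on simulated data.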

Additional observations from a re-analysis of the deposited data

Results flagged for a closer look

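Grid1 stood out because its groups went opposite ways at neighbouring stages: its shift, siRif1 minus siCont, was 13.6 points at the 4-cell stage and -15.3 points at the 8-cell stage, with 1 sample per group. The 1 Mb on either side of the gene went the same way, with 12.9 and -12.9 points, so the turn was not confined to Grid1. The difference between the stages was not tested.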

How the results depend on the processing

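No paired analysis was possible because the numbers in the labels only name cells, and no test was made. As percentile ranks the median shift was 6.37, 4.78 and 4.15 points at the 4-cell, 8-cell and morula stages, genes earlier by 10 points or more numbered 13 at the 4-cell and 7 at the morula stage, and genes later by that much 2 at the 4-cell and 4 at the 8-cell stage, against 18.1 and 16.8% of all genes earlier and 33.4 and 44.9% later. At a common SD the median was 4.02 at the 8-cell and 5.00 at the morula stage, with 5 genes earlier at each, against 9.47 and 10.8% of all genes. With the midpoint bin 8 genes were earlier at the 4-cell stage and 1 later at the 8-cell stage, against 9.81 and 42.9% of all genes. Large shifts that turned sign at the morula stage were Nrg3 (-1.15), Cdh12 (-3.31) and Nkain2 (-1.81) as ranks and Cdh12 (-1.14) and Sgcz (-0.911) at a common SD. Under the other alternatives median shifts stayed within 2.06 to 3.76, 5.81 to 7.89 and 9.85 to 14.04 points. Of 714 shifts of single genes under all alternatives, 472 stayed within 1.5 times of the reported value, 237 did not, small shifts that turned sign included, and 5 were large shifts that turned sign, named above. The number of cells per group limits every share, and the number of embryos behind it is not known here.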
